A study of Mus musculus with 12 samples.

Results

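The 10 genes described here encode enzymes that modify or cross-link collagen, and they were taken by symbol from the 46731 genes of the expression table: the lysyl oxidases *Lox*, *Loxl1*, *Loxl2*, *Loxl3* and *Loxl4*, the lysyl hydroxylases *Plod1*, *Plod2* and *Plod3*, and the catalytic α subunits of prolyl 4-hydroxylase *P4ha1* and *P4ha2*. RNA was sequenced from 12 cultures of ATDC5, a mouse teratocarcinoma-derived line that can be driven towards cartilage. The groups were shRNA-NC, a stable line made with a control lentivirus, and shRNA-*Ddx5*, a stable line made with a lentivirus that expresses a hairpin against the RNA helicase gene *Ddx5*, each kept in medium or given IL-1β with TNF-α (cytokines) and collected at 6 h, with 3 libraries per group. Both lines therefore carried a lentiviral cassette, the knockdown cells had been selected with puromycin, and a single knockdown line was measured. The comparisons ask how the loss of *Ddx5* and an inflammatory stimulus change the expression of these enzymes.

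Collagen chains are hydroxylated in the endoplasmic reticulum before they fold. Prolyl 4-hydroxylase, a complex of α subunits with protein disulfide isomerase, makes the hydroxyproline that keeps the triple helix stable, and the lysyl hydroxylases make the hydroxylysine that carries sugars and forms strong cross-links. Outside the cell, the copper-dependent lysyl oxidases oxidize lysine and hydroxylysine so that neighbouring collagen or elastin molecules become covalently joined, a reaction that stiffens cartilage, tendon and scar tissue.

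Levels are FPKM, fragments per kilobase of gene length scaled for sequencing depth, so levels of different genes can be set side by side. Between 14119199 and 19276520 fragments lay on genes in each library. *Ddx5* ranged from 294 to 337 FPKM in the 6 shRNA-NC libraries and from 90.7 to 118 FPKM in the 6 shRNA-*Ddx5* libraries, so the targeted gene followed the labels. Of 14 chondrocyte markers, 10 to 12 lay below 1 FPKM in every library of a group; *Sox9* and *Col2a1* were measurable, *Acan* did not exceed 0.0325 FPKM and *Cnmd* had no fragment. Endothelial and skeletal muscle markers summed to at most 0.186 and 0.424 FPKM in any library. Fold changes below are differences of log2(FPKM + 1), a scale that understates changes in weakly expressed genes. They come from limma with Benjamini-Hochberg adjustment over 12368 genes that had at least 1 FPKM in at least 3 libraries, with a threshold of 0.05 on the adjusted p. Of the 10 enzymes, 9 passed this filter, and *Loxl2* did not. In whole cultures, fewer cells of a kind and less RNA per cell cannot be told apart.

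Genes of the table follow the GRCm39 build. *Plod2* lies on the plus strand of chromosome 9 (92421828 to 92490481), *Plod3* on the plus strand of chromosome 5 (137015873 to 137025500), *P4ha1* on the plus strand of chromosome 10 (59159019 to 59209126) and *P4ha2* on the plus strand of chromosome 11 (53991750 to 54022494). Gene-level values hold all exons and do not separate splice forms, including those of *Plod2*. The strand setting of the counting is not given in the sources used here, and without it reads of overlapping genes on opposite strands cannot be told apart. *Plod3* overlaps *Znhit1* over 941 bases and *Loxl3* overlaps *Htra2* over 1301 bases, both on the opposite strand.

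RefSeq promoters, 250 bases before to 50 bases after the gene start on GRCm38.p6, were found for 5 of the 10 enzymes (*Loxl4*, *Plod1*, *Plod3*, *P4ha1* and *P4ha2*). *Plod3* and *P4ha1* are shown because their transcripts rose after knockdown in both media, and *P4ha2* because it rose with cytokines in both lines. Capitals mark the ACGTG form of the hypoxia response core and a loose pattern for the NF-κB site (κB pattern), GGGANNNNCC. Each was searched on both strands, with no overlap between them in these windows. The GCGTG form of the core was not searched. Bases at N were left free, so a match to the κB pattern need not be a consensus NF-κB site. Coordinates are chr5:136986769-136987068 (plus) for *Plod3*, chr10:59323046-59323345 (plus) for *P4ha1* and chr11:54100674-54100973 (plus) for *P4ha2*.
Plod3: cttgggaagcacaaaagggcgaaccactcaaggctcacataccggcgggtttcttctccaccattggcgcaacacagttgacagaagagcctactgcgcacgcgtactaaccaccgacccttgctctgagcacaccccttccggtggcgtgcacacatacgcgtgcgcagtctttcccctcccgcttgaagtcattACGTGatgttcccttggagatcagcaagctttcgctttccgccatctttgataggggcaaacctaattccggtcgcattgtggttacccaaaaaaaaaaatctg
P4ha1: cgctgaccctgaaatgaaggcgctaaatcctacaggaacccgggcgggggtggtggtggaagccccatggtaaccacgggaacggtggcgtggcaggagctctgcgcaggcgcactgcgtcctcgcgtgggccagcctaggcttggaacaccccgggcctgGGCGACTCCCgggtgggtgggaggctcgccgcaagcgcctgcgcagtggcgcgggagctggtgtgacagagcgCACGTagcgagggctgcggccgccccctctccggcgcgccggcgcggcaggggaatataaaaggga
P4ha2: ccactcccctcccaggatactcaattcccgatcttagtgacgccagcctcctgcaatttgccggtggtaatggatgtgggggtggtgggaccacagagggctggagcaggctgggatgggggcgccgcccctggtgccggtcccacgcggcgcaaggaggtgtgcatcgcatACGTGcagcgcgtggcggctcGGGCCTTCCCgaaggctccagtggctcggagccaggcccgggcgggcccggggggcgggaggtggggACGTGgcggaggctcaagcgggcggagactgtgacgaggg
The *Plod3* window holds 1 ACGTG and no κB match, that of *P4ha1* holds 1 of each, and that of *P4ha2* holds 2 ACGTG and 1 κB match. *Loxl4* holds 2 κB matches and no ACGTG, and *Plod1* holds neither of these letter patterns. Among 32851 mouse promoter windows of the same length, 19.6% hold ACGTG and 20.7% the κB pattern. A G-quadruplex pattern, at least 4 runs of 3 or more G with short loops on either strand, was found among the 5 windows only in *P4ha2*, and 18.6% of all windows hold it. These are matches of letters, not measured binding sites.

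*Lox*, the lysyl oxidase that cross-links fibrillar collagen and elastin, was the most abundant of the 10 enzymes per length in every group and fell after *Ddx5* knockdown. The gene lies on the minus strand of chromosome 18 (52649132 to 52662939). In medium its level was 203, 231 and 264 FPKM in the 3 shRNA-NC libraries and 89.3, 116 and 112 FPKM in the 3 shRNA-*Ddx5* libraries. With cytokines its level was 163, 151 and 156 FPKM in shRNA-NC and 115, 110 and 116 FPKM in shRNA-*Ddx5* cells. All shRNA-*Ddx5* libraries lay below all shRNA-NC libraries of the same medium, and the shRNA-NC libraries with cytokines lay between the untreated controls and the knockdown cells. Knockdown left 45.4% of the control mean in medium (log2 fold change -1.13, standard error 0.12, adjusted p = 2.1e-05) and 72.8% with cytokines (log2 fold change -0.45, adjusted p = 0.0075).

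**Figure D1:**
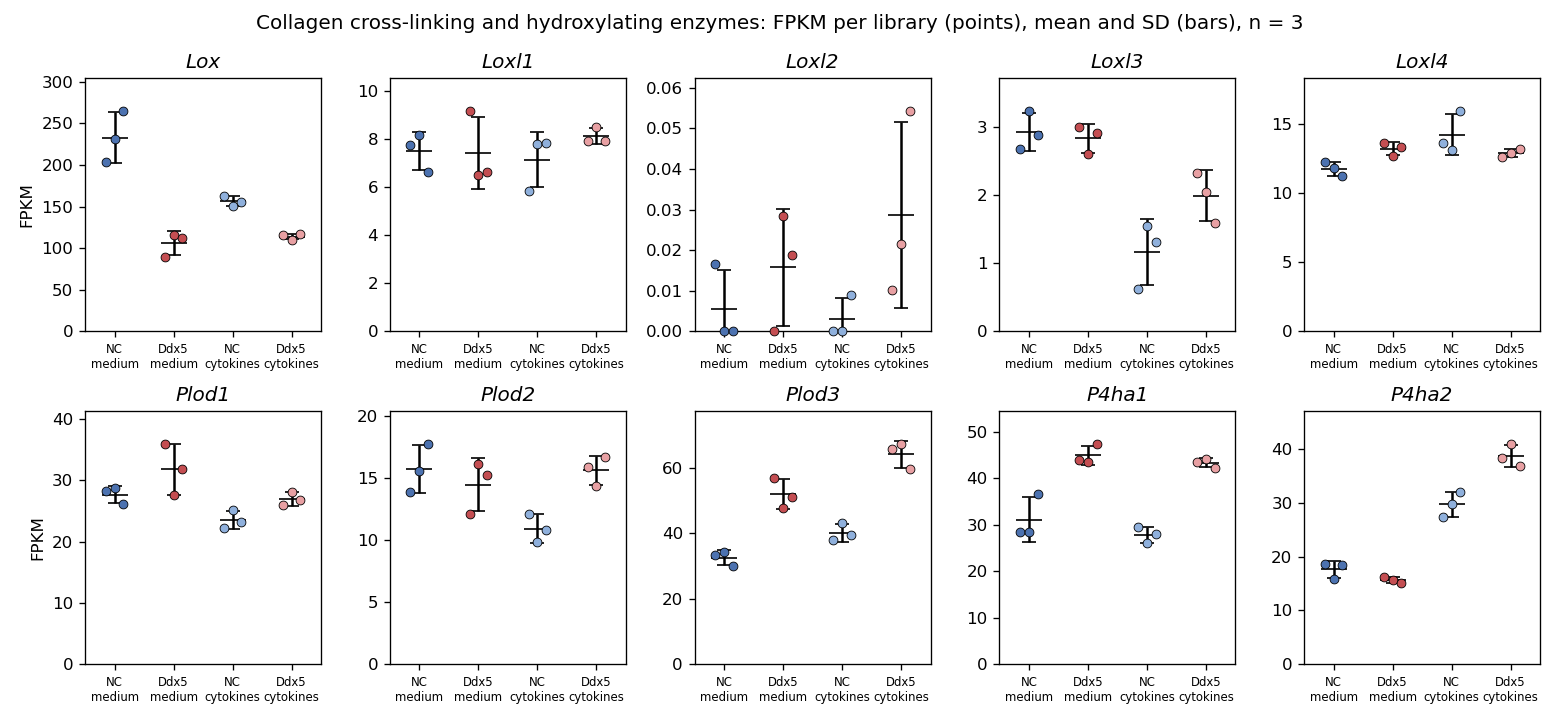
FPKM (vertical axes, each starting at 0 and scaled per gene) of the 10 enzymes in the 4 groups (horizontal axes; NC is shRNA-NC and Ddx5 is shRNA-*Ddx5*), with 1 point per library and bars for the mean and SD of 3 libraries. *Lox* stands highest in shRNA-NC cells in medium, *Plod3* and *P4ha1* are higher in both shRNA-*Ddx5* groups, and *P4ha2* is highest with cytokines in shRNA-*Ddx5* cells.

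Cytokines lowered *Lox* in shRNA-NC cells to 67.3% of the level in medium (log2 fold change -0.56, adjusted p = 0.0034). In shRNA-*Ddx5* cells the level was 106 ± 14.4 FPKM (SD, n = 3) in medium and 114 ± 3.29 FPKM (SD, n = 3) with cytokines, and the ranges overlapped (log2 fold change 0.12, 95% interval -0.14 to 0.37, adjusted p = 0.49). The knockdown effect with cytokines was 0.68 higher on the log2 scale than that in medium (standard error 0.16, adjusted p = 0.028 for the interaction). This interaction did not pass the threshold in 6 of 12 fits that left out a library: with cytokines, shRNA-*Ddx5* replicate 1 (0.67), replicate 2 (0.70) or replicate 3 (0.66) or shRNA-NC replicate 2 (0.65) or replicate 3 (0.68), and in medium shRNA-NC replicate 2 (0.68). It was also lost without the filter on low values (adjusted p = 0.05). The difference itself stayed between 0.56 and 0.77 in those 12 fits.

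The other lysyl oxidases were far less abundant than *Lox*. *Loxl1*, known for its part in elastic fibre upkeep, had group means from 7.14 to 8.12 FPKM and passed the threshold in none of the 5 comparisons by limma (0 also at an unadjusted p under 0.05 and with voom weights), with a knockdown log2 fold change of -0.02 in medium (95% interval -0.32 to 0.27) and 0.17 with cytokines (95% interval -0.13 to 0.47). *Loxl2* had 0 to 5 fragments per library, at most 0.0542 FPKM, so no comparison was made; 3 fragments were taken as the floor.

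*Loxl4*, a paralogue with lysyl oxidase activity, was higher with cytokines in shRNA-NC cells. Its level was 12.2, 11.8 and 11.3 FPKM in medium and 13.7, 13.1 and 15.9 FPKM with cytokines in these cells, ranges that did not overlap (log2 fold change 0.25, standard error 0.08, adjusted p = 0.028). The call was lost under quantile normalization (0.19), under scaling to the sum of fragments (0.17), in a fit of the 6 libraries alone (adjusted p = 0.10) and without shRNA-NC replicate 2 (0.26) or replicate 3 (0.22) in medium or replicate 3 with cytokines (0.18). The knockdown log2 fold change of *Loxl4* was 0.16 in medium and -0.13 with cytokines, neither past the threshold (adjusted p = 0.12 and 0.20).

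*Loxl3*, a lysyl oxidase required for normal cartilage and palate development, fell with cytokines in shRNA-NC cells. In these cells its level was 2.68, 3.23 and 2.88 FPKM in medium and 0.618, 1.55 and 1.32 FPKM with cytokines. The corresponding levels in shRNA-*Ddx5* cells were 3.00, 2.60 and 2.92 FPKM in medium and 2.33, 2.05 and 1.59 FPKM with cytokines. Each cytokine group lay below its own control in medium, and with cytokines all shRNA-*Ddx5* libraries lay above all shRNA-NC libraries. The log2 fold change for cytokines was -0.89 in shRNA-NC cells (adjusted p = 0.0014) and -0.37 in shRNA-*Ddx5* cells (adjusted p = 0.11, and 0.027 with the spread estimated without shRNA-NC with cytokines replicate 1).

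The knockdown log2 fold change of *Loxl3* with cytokines was 0.49 (standard error 0.16, adjusted p = 0.025), a call that was lost without shRNA-NC replicate 1 (0.29) or shRNA-*Ddx5* replicate 1 (0.41) or replicate 2 (0.47) of the cytokine groups, without the filter on low values (adjusted p = 0.065) and in a fit of the 6 libraries alone (adjusted p = 0.064). *Loxl3* rested on 42 to 267 fragments per library, and the overlapping *Htra2* rose after knockdown, with means of 26.1 and 40.4 FPKM in medium (log2 fold change 0.66, adjusted p = 0.031) and of 38.5 and 66.6 FPKM with cytokines (0.79, adjusted p = 0.014). The part of reads from *Htra2* in the *Loxl3* values was not tested. Summed over the 5 genes, lysyl oxidase levels were 255 ± 29.7 (SD, n = 3) and 129 ± 12.3 (SD, n = 3) FPKM in shRNA-NC and shRNA-*Ddx5* cells in medium, and 179 ± 5.18 and 137 ± 2.89 FPKM (SD, n = 3 each) with cytokines.

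*Plod3*, which encodes a lysyl hydroxylase that also transfers sugars to hydroxylysine, rose after knockdown in both media. In medium its level was 33.3, 34.3 and 30.0 FPKM in shRNA-NC and 56.9, 47.7 and 51.1 FPKM in shRNA-*Ddx5* cells. With cytokines its level was 38.0, 43.2 and 39.3 FPKM in shRNA-NC and 65.7, 67.1 and 59.4 FPKM in shRNA-*Ddx5* cells. None of the 4 groups overlapped with its neighbour in level. Knockdown raised *Plod3* 1.6-fold in medium (log2 fold change 0.66, standard error 0.09, adjusted p = 0.00016) and 1.59-fold with cytokines (0.66, adjusted p = 0.00015), and the difference between these effects was near 0 (interaction 0.00, 95% interval -0.28 to 0.28). *Znhit1*, the overlapping gene on the opposite strand, rose as well, with means of 16.8 and 37.4 FPKM in medium (log2 fold change 1.10, adjusted p = 6.8e-05) and of 19.2 and 35.9 FPKM with cytokines (0.87, adjusted p = 0.00034), and its part in the *Plod3* values was not tested.

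Cytokines raised *Plod3* by a similar, smaller amount in each line, 0.30 on the log2 scale in shRNA-NC (adjusted p = 0.026) and 0.30 in shRNA-*Ddx5* cells (adjusted p = 0.030). These calls depended on the scaling: under quantile normalization the differences were 0.14 and 0.17 and under scaling to the sum of fragments 0.21 and 0.26, none past the threshold. In shRNA-NC cells the call was also lost in a fit of the 6 libraries alone (adjusted p = 0.061) and without replicate 3 in medium (0.24) or without replicate 2 (0.24) or replicate 3 (0.31) with cytokines. In shRNA-*Ddx5* cells it was lost without replicate 2 (0.24) or replicate 3 (0.29) in medium or replicate 1 (0.28) or replicate 2 (0.27) with cytokines.

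*Plod2* encodes the lysyl hydroxylase that acts on the telopeptides of fibrillar collagen and so directs the type of cross-link. Its level in medium was 13.9, 15.6 and 17.7 FPKM in shRNA-NC and 12.1, 16.1 and 15.3 FPKM in shRNA-*Ddx5* cells, ranges that overlapped (log2 fold change -0.12, 95% interval -0.38 to 0.15, adjusted p = 0.47). With cytokines its level was 12.1, 9.86 and 10.8 FPKM in shRNA-NC and 15.9, 14.4 and 16.7 FPKM in shRNA-*Ddx5* cells, and all knockdown libraries lay above all controls (log2 fold change 0.48, standard error 0.12, adjusted p = 0.0075). Cytokines lowered *Plod2* in shRNA-NC cells (log2 fold change -0.49, adjusted p = 0.010), whereas in shRNA-*Ddx5* cells the difference was 0.11 (95% interval -0.16 to 0.38, adjusted p = 0.54). The shRNA-NC group with cytokines thus held the lowest mean, 10.9 FPKM, and the means of the other groups lay between 14.5 and 15.7 FPKM.

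The interaction for *Plod2* was 0.60 on the log2 scale (standard error 0.17) and did not pass the threshold over all genes (adjusted p = 0.058). It passed under scaling to the sum of fragments (0.64, adjusted p = 0.046), with voom weights (0.64, adjusted p = 0.047) and without shRNA-*Ddx5* replicate 2 in medium (0.67, adjusted p = 0.045). *Plod1*, whose product hydroxylates lysines of the collagen helix, had group means from 23.5 to 31.7 FPKM and passed the threshold in none of the 5 comparisons by limma (at an unadjusted p under 0.05 it was lower with cytokines in both lines). The knockdown log2 fold change of *Plod1* was 0.19 in each medium (adjusted p = 0.13 and 0.12), and in medium it was 0.28 (adjusted p = 0.025) without shRNA-*Ddx5* replicate 2. With cytokines *Plod1* differed by -0.23 in shRNA-NC (adjusted p = 0.084, and 0.044 or 0.046 when shRNA-*Ddx5* replicate 1 or 2 in medium did not enter the spread) and by -0.22 in shRNA-*Ddx5* cells (adjusted p = 0.11, and -0.32 with an adjusted p of 0.027 without shRNA-*Ddx5* replicate 2 in medium). *Plod1* was called lower with cytokines in shRNA-NC cells under quantile normalization (-0.37, adjusted p = 0.0057) and under scaling to the sum of fragments (-0.31, adjusted p = 0.025), and in shRNA-*Ddx5* cells under quantile normalization (-0.30, adjusted p = 0.020).

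*P4ha1*, the major α subunit of prolyl 4-hydroxylase in most cells, rose after knockdown whether or not cytokines were present. In medium its level was 28.4, 28.4 and 36.6 FPKM in shRNA-NC and 44.0, 43.5 and 47.3 FPKM in shRNA-*Ddx5* cells. With cytokines its level was 29.5, 26.1 and 28.001 FPKM in shRNA-NC and 43.6, 44.1 and 42.3 FPKM in shRNA-*Ddx5* cells. The groups of each medium did not overlap, and the 2 shRNA-*Ddx5* groups overlapped each other. The increase was 1.44-fold in medium (log2 fold change 0.52, standard error 0.10, adjusted p = 0.0012) and 1.56-fold with cytokines (0.62, adjusted p = 0.00039), and cytokines did not move *P4ha1* past the threshold in shRNA-NC (-0.15, adjusted p = 0.27) or shRNA-*Ddx5* cells (-0.05, adjusted p = 0.74). Under quantile normalization the difference in shRNA-NC cells was -0.32 and passed (adjusted p = 0.039).

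*P4ha2*, the other α subunit measured, had the largest rise with cytokines among the 9 tested enzymes in each line. In shRNA-NC cells its level was 18.7, 15.8 and 18.4 FPKM in medium and 27.2, 29.8 and 31.9 FPKM with cytokines. In shRNA-*Ddx5* cells its level was 16.2, 15.6 and 15.1 FPKM in medium and 38.3, 40.8 and 36.8 FPKM with cytokines. The cytokine groups lay above both groups in medium, and the shRNA-*Ddx5* libraries with cytokines lay above all others. Cytokines raised it 1.68-fold in shRNA-NC (log2 fold change 0.72, standard error 0.09, adjusted p = 8.5e-05) and 2.47-fold in shRNA-*Ddx5* cells (1.25, adjusted p = 7.2e-07).

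Knockdown changed *P4ha2* by -0.16 on the log2 scale in medium, where the groups overlapped (adjusted p = 0.14, and -0.26 with an adjusted p of 0.032 under scaling to the sum of fragments), and raised it by 0.37 with cytokines (adjusted p = 0.0042). The interaction was 0.53 (standard error 0.12, adjusted p = 0.020). Among the fits that left out a library, it did not pass the threshold without shRNA-NC replicate 1 in medium (0.49), without shRNA-*Ddx5* replicate 3 in medium (0.51) or without shRNA-*Ddx5* replicate 1 (0.54) or replicate 2 (0.50) with cytokines, and the difference lay between 0.48 and 0.61 in the 12 fits that left out a library. *P4ha3*, the α subunit outside these 10 enzymes, had group means of at most 3.46 FPKM, and *P4hb*, the protein disulfide isomerase that completes the enzyme, rose after knockdown, in medium with means of 316 and 538 FPKM (log2 fold change 0.76, adjusted p = 0.00011) and with cytokines with means of 327 and 546 FPKM (0.74, adjusted p = 0.00013). Both were named for their role after their values were seen.

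Counted together, knockdown in medium raised 2 of the 9 tested enzymes (*Plod3* and *P4ha1*) and lowered 1 (*Lox*), where 25.3% of all genes tested rose and 21.7% fell. With cytokines knockdown raised 5 (*Loxl3*, *Plod2*, *Plod3*, *P4ha1* and *P4ha2*) and lowered 1 (*Lox*), where 23.5% of all genes rose and 22.1% fell. The groups did not overlap for 4 of 9 enzymes in medium and 8 of 9 with cytokines, where 53.5% and 61.6% of all genes did not. The median log2 fold change of the 9 enzymes was -0.02 in medium and 0.37 with cytokines, and that of all genes was 0.03 and 0.01.

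Cytokines in shRNA-NC cells raised 3 enzymes (*Loxl4*, *Plod3* and *P4ha2*) and lowered 3 (*Lox*, *Loxl3* and *Plod2*), where 18.6% of all genes rose and 15.2% fell. In shRNA-*Ddx5* cells they raised 2 (*Plod3* and *P4ha2*) and lowered 0 by limma, with 2 lower at an unadjusted p under 0.05 and 0 with voom weights, where 13.5% of all genes rose and 13.5% fell. The groups with and without cytokines did not overlap for 7 of 9 enzymes in shRNA-NC and 3 of 9 in shRNA-*Ddx5* cells, and for 45.7% and 47.3% of all genes. The interaction was positive past the threshold for 2 enzymes (*Lox* and *P4ha2*) and negative for 0 by limma, with 1 negative at an unadjusted p under 0.05 and 0 with voom weights, where 3.46% of all genes were called positive and 4.75% negative. The shares of enzymes are counts of 9 genes chosen by function and were read against these percentages only.

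**Figure D2:**
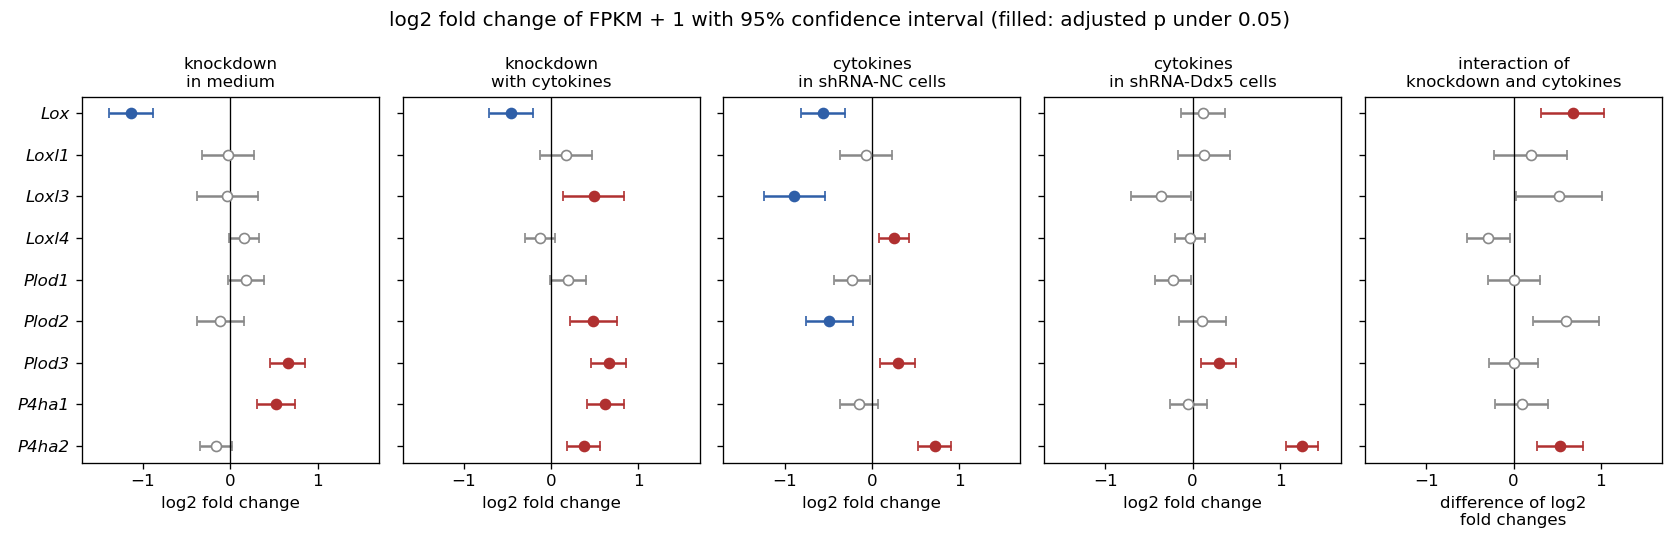
Log2 fold change of FPKM + 1 (horizontal axes) of the 9 tested enzymes (vertical axis) in the 5 comparisons, with the 95% confidence interval, where filled red points rose and filled blue points fell at an adjusted p under 0.05 and open points did not pass. *Lox* is the enzyme that fell after knockdown in both media, at -1.13 and -0.45, and *P4ha2* had the largest rise with cytokines, 1.25 in shRNA-*Ddx5* cells.

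The share that each enzyme took of its family was compared as a description. Shares within a family do not depend on the scaling between libraries, and an exact two-sided permutation test of 3 against 3 libraries cannot give a p below 0.1, so no difference in share could pass 0.05. Levels of 53.5% and 61.6% of all genes did not overlap between the lines in medium and with cytokines, so a lack of overlap is common here. *Lox* made up 91.2% of the summed lysyl oxidase FPKM in shRNA-NC and 81.6% in shRNA-*Ddx5* cells in medium, and 87.4% and 83.2% with cytokines, and neither pair overlapped (exact p = 0.1 for each). *Loxl4* took 4.67% and 10.3% in medium and 7.94% and 9.40% with cytokines, again without overlap (exact p = 0.1 for each). The level of *Loxl4* itself was 11.8 and 13.2 FPKM in medium and 14.2 and 12.9 FPKM with cytokines. Neither knockdown difference in that level passed the threshold by limma (adjusted p = 0.12 and 0.20). Between the media, the share of *Lox* overlapped in shRNA-*Ddx5* cells (exact p = 0.8).

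*Plod3* was the most abundant lysyl hydroxylase per length in all 4 groups, and its share was 42.8% in shRNA-NC and 52.9% in shRNA-*Ddx5* cells in medium, and 53.8% and 60.0% with cytokines. *Plod2* held 20.8% of lysyl hydroxylase FPKM in untreated shRNA-NC cells and between 14.7% and 14.9% in the other 3 groups. *Plod1* held 36.4% and 32.2% in medium and 31.5% and 25.3% with cytokines. The groups compared did not overlap for these shares (exact p = 0.1 each), except for *Plod2* between the knockdown and control with cytokines and between the media in shRNA-*Ddx5* cells (exact p = 1 for both).

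Between the prolyl 4-hydroxylase α subunits, the share of *P4ha2* was 36.3% in shRNA-NC and 25.8% in shRNA-*Ddx5* cells in medium, and 51.5% and 47.1% with cytokines. No pair of these groups that was compared overlapped (exact p = 0.1 each). In shRNA-NC cells with cytokines *P4ha2* and *P4ha1* were thus close to equal in level, at 29.7 ± 2.34 and 27.9 ± 1.71 FPKM (SD, n = 3), whereas in shRNA-*Ddx5* cells in medium *P4ha1* stood at 44.9 ± 2.05 FPKM and *P4ha2* at 15.6 ± 0.534 FPKM (SD, n = 3).

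**Figure D3:**
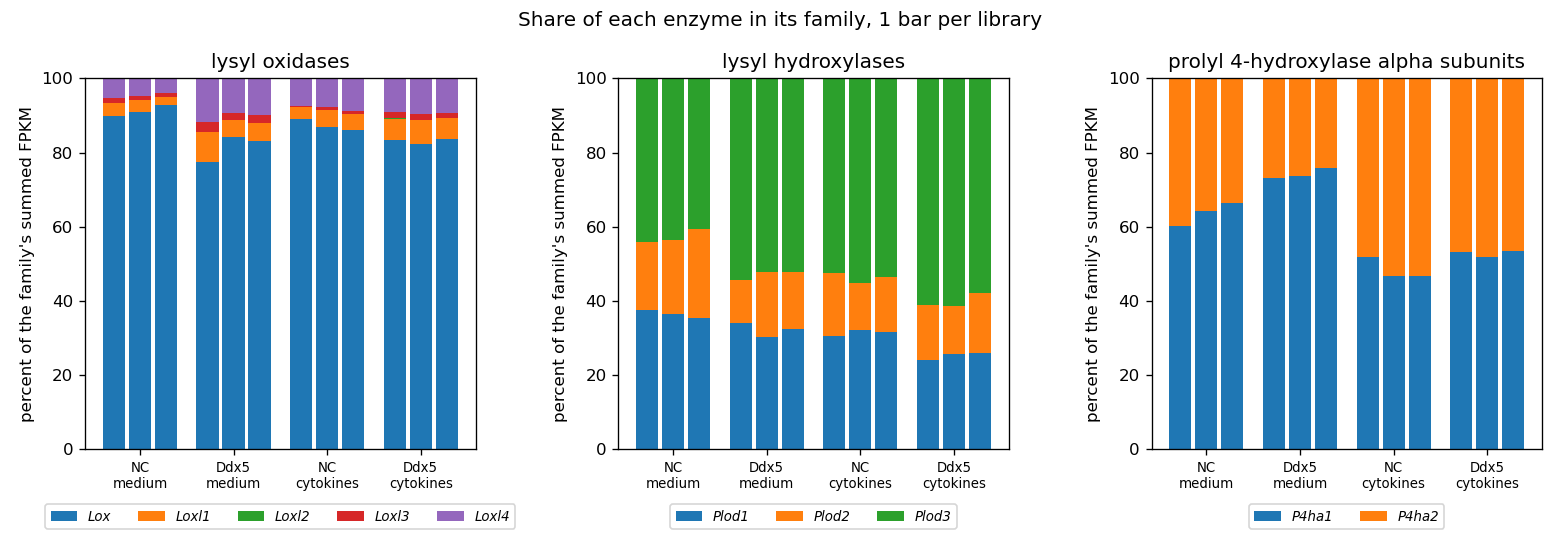
Percent of the summed FPKM of each enzyme family (vertical axes) taken by each member (colours), with 1 bar per library and the 4 groups along the horizontal axes. The share of *Lox* is highest in shRNA-NC cells in medium (91.2% on average), that of *Plod3* in shRNA-*Ddx5* cells with cytokines (60.0%) and that of *P4ha2* in shRNA-NC cells with cytokines (51.5%).

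Most tested genes that act with these enzymes on collagen rose after knockdown. Of 29 genes listed as collagen maturation partners (chaperones, prolyl 3-hydroxylases, galactosyltransferases, secretion factors and propeptide proteases) 26 were tested. After knockdown 18 rose and 2 fell in medium and 22 rose and 1 fell with cytokines, where 25.3% and 23.5% of all genes rose and 21.7% and 22.1% fell. Among those that rose in both media, *Adamts2*, *Adamts3* and *Adamts14* would not have passed the filter on low values on the shRNA-NC libraries alone. There they were at most 1.04, 0.285 and 0.461 FPKM, so their direction was tied to their being tested. Their median log2 fold change was 0.65 in medium and 0.66 with cytokines. *Creb3l1*, a transcription factor that drives procollagen secretion genes, rose from 1.98 ± 0.382 to 16.4 ± 0.473 FPKM (SD, n = 3) in medium (log2 fold change 2.55, adjusted p = 1.5e-07) and by 2.17 with cytokines (adjusted p = 3.6e-07). *Pcolce*, an enhancer of procollagen C-proteinase, rose by 1.53 on the log2 scale in medium, where its means were 172 and 501 FPKM, and by 1.75 with cytokines, where they were 134 and 451 FPKM.

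*Crtap*, a subunit of the prolyl 3-hydroxylase complex, rose by 1.39 on the log2 scale in medium and 1.33 with cytokines. *P3h2*, a prolyl 3-hydroxylase, rose by 1.43 in medium, and *Adamts2*, the procollagen N-proteinase, rose by 1.52 with cytokines. Against this direction *Pepd*, the dipeptidase that releases proline from collagen breakdown products, fell in both media (-0.83 and -1.01), and *Mia3*, which helps load collagen at endoplasmic reticulum exit sites, fell in medium (-0.53, adjusted p = 0.0032).

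The fibrillar collagens that these enzymes modify mostly rose after knockdown: of 8 tested from 11 listed, 6 rose and 2 fell in each medium. Among all genes tested 25.3% rose and 21.7% fell in medium, and 23.5% rose and 22.1% fell with cytokines. *Col11a1*, among the 6 that rose, would not have passed the filter on low values on the shRNA-NC libraries alone. *Col2a1*, among the 2 that fell, would not have passed on the shRNA-*Ddx5* libraries alone. The direction of both was thus tied to their being tested. *Col3a1* rose from 12.2 ± 0.970 to 274 ± 7.003 FPKM (SD, n = 3) in medium (log2 fold change 4.38, adjusted p = 2e-06) and by 4.99 with cytokines, *Col1a1* by 2.45 and 3.00, *Col1a2* by 1.80 and 2.07, and *Col5a1* by 1.71 and 1.91. *Col2a1*, the cartilage collagen, fell from 12.4 to 0.899 FPKM in medium (-2.80, adjusted p = 5.9e-06) and by 1.98 on the log2 scale with cytokines. *Col11a2* fell by 0.78 in medium (adjusted p = 0.0041), and its fall of 0.48 with cytokines (adjusted p = 0.044) did not pass the threshold in 11 alternatives, among them the fit without the filter on low values.

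Elastic fibre genes and lysyl oxidase partners were sparse, with 8 of 15 tested and no fragment for elastin (*Eln*). Of the 8, 4 rose and 1 fell after knockdown in medium, where 25.3% of all genes rose and 21.7% fell. With cytokines 5 rose and 1 fell, where 23.5% of all genes rose and 22.1% fell. *Fbln5*, which anchors elastic fibres, rose by 1.56 and 1.16, *Postn*, a matrix protein that brings the *Lox* activator Bmp1 to the matrix, by 0.85 and 1.76, *Efemp2*, which recruits pro-Lox to tropoelastin, by 0.57 and 0.80, and *Fn1* by 0.64 and 0.78 on the log2 scale in medium and with cytokines. The call for *Fn1* in medium was lost under quantile normalization (0.32). *Atp7a*, the copper pump that loads lysyl oxidases, fell with *Lox* in both media, from 10.3 ± 2.22 to 4.67 ± 1.26 FPKM (SD, n = 3) in medium (-0.998, adjusted p = 0.00084) and from 7.25 ± 0.829 to 3.92 ± 0.420 FPKM (SD, n = 3) with cytokines (-0.75, adjusted p = 0.0051).

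Targets of hypoxia-inducible factors were listed because several of the 10 enzymes are textbook targets of these factors. Of 20 tested outside the family, 11 rose and 4 fell after knockdown in medium, and 12 rose and 4 fell with cytokines, with medians of 0.36 and 0.53. Of all genes, 25.3% rose and 21.7% fell in medium, and 23.5% rose and 22.1% fell with cytokines. *Ankrd37*, among the 12 that rose with cytokines, would not have passed the filter on low values on the shRNA-NC libraries alone. *Pfkfb3* and *Egln1*, a glycolytic regulator and a sensor of oxygen, rose by 1.41 and 0.86 in medium, and *Bnip3* and *Ldha*, a mitophagy receptor and lactate dehydrogenase, rose by 0.99 and 0.76 with cytokines. *Vegfa*, the angiogenic factor, fell by 0.95 in medium and by 1.90 with cytokines, and *Ndrg1* fell by 0.83 and 1.41.

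Genes that respond to TGF-β, a known inducer of lysyl oxidases, were counted in the same way. Of 11 tested, 3 rose and 4 fell in medium, where 25.3% of all genes rose and 21.7% fell, and 6 rose and 4 fell with cytokines, where 23.5% rose and 22.1% fell. The call for *Ltbp2*, one of the 4 that fell in medium (-0.59, adjusted p = 0.031), was lost in 8 alternatives. *Acta2*, which encodes smooth muscle actin, rose by 3.04 and 3.26, and *Tgfbi*, a matrix protein, rose by 0.66 and 1.31. On the shRNA-NC libraries alone *Acta2* would not have passed the filter on low values, so its direction was tied to its being tested. *Skil* and *Pmepa1*, feedback inhibitors of the pathway, fell in both media, by 1.30 and 0.77 in medium and by 0.77 and 1.58 with cytokines. Some genes turned between the media: *Ccn2* rose by 0.45 in medium (adjusted p = 0.0036) and fell by 0.71 with cytokines (adjusted p = 0.00018). *Ltbp2* rose by 0.53 with cytokines, close to the threshold (adjusted p = 0.047). All of these lists were compared with a median of all genes near 0 (0.03 in medium and 0.01 with cytokines), and no set was tested for enrichment.

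**Figure D4:**
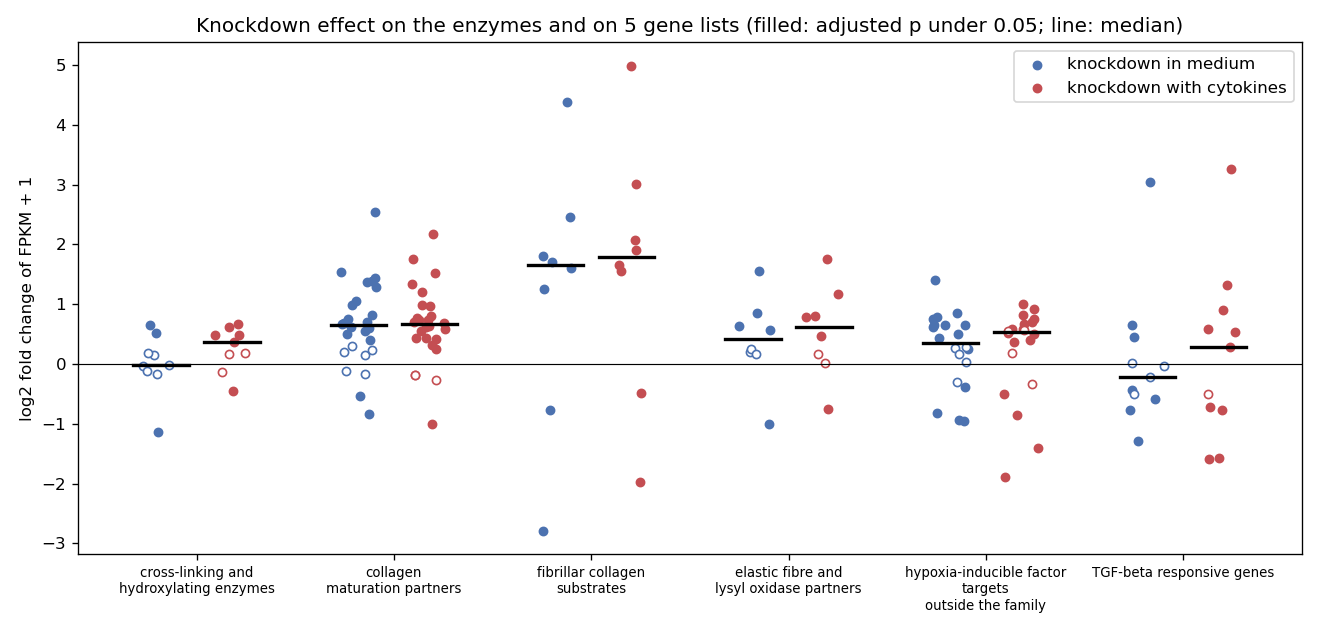
Log2 fold change of FPKM + 1 after knockdown (vertical axis) in medium (blue) and with cytokines (red) for the 9 tested enzymes and the tested genes of 5 lists (horizontal axis), where filled points passed an adjusted p of 0.05 and black lines are medians. Medians lie at -0.02 and 0.37 for the enzymes, at 0.65 and 0.66 for collagen maturation partners and at 1.65 and 1.78 for fibrillar collagens.

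Tested osteoblast markers rose after knockdown, and most listed markers of the other cell types were too low to test. Of 7 osteoblast markers, 4 were tested and all 4 rose in each medium, where 25.3% of all genes rose in medium and 23.5% with cytokines. *Alpl*, among these 4, would not have passed the filter on low values on the shRNA-NC libraries alone, where it was at most 1.10 FPKM. Its direction was thus tied to its being tested. The 7 summed to 16.1 to 18.5 FPKM in shRNA-NC and 65.9 to 70.0 FPKM in shRNA-*Ddx5* libraries in medium, and to 6.36 to 9.68 and 25.0 to 28.1 FPKM with cytokines. *Bglap* stayed at or below 0.463 FPKM. Of 5 myofibroblast markers, *Acta2* was the only gene tested, and *Myl9* had no fragment and *Tagln* at most 1. Of 5 adipocyte markers, *Fabp4* was the only gene tested. It was listed at 0 in untreated shRNA-NC cells and did not exceed 2.03 FPKM in any library, and *Adipoq* and *Lep* had no fragment. The 8 macrophage and leukocyte markers, with *Ptprc* and *Cd3e* at 0, summed to 5.23 to 5.57 and 5.17 to 6.77 FPKM in shRNA-NC and shRNA-*Ddx5* cells in medium and to 7.83 to 10.5 and 10.9 to 11.7 FPKM with cytokines. *Cd14*, the highest of them, rose with cytokines by 0.74 in shRNA-NC (adjusted p = 0.00076) and by 0.9996 in shRNA-*Ddx5* cells (adjusted p = 7.8e-05). The 14 chondrocyte markers summed to 40.9 to 47.3 and 27.7 to 31.6 FPKM in shRNA-NC and shRNA-*Ddx5* cells in medium and to 14.9 to 21.4 and 8.85 to 9.99 FPKM with cytokines. Of 4 tested, 0 rose and 2 fell after knockdown in medium and 0 rose and 3 fell with cytokines, where 21.7% and 22.1% of all genes fell. In medium the sums were mostly *Sox9*, with means of 27.5 and 24.1 FPKM (adjusted p = 0.095 by limma), and *Col2a1*, with 12.4 and 0.899 FPKM. *Sox6*, too low to test, went the other way, with means of 0.171 and 0.914 FPKM in medium. The part of these marker changes in the levels of *Lox*, *Plod3*, *P4ha1* and *P4ha2* was not tested.

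The genes nearest to *Lox*, *Plod2* and *P4ha1* in pattern were found from the Euclidean distance between log2(FPKM + 1) values over the 12 libraries, each centred on its own mean. Nearest to *Lox* were *Pcmtd1* (distance 0.34, with group means of 7.14 and 3.16 FPKM in shRNA-NC and shRNA-*Ddx5* cells in medium and 4.52 and 2.89 FPKM with cytokines), *Zfp729a* (0.35) and *Serac1* (0.37), where the median distance over all genes tested was 1.88. Nearest to *Plod2* were *Nemp1* (0.26), *Ttk* (0.34) and *Tanc2* (0.36), all with their lowest group mean in shRNA-NC cells with cytokines. Nearest to *P4ha1* were *4933404O12Rik* (0.21), *Sptssa* (0.23) and *Wrap53* (0.24), all with both shRNA-*Ddx5* means above both shRNA-NC means. All of these genes were picked on the values of the same 12 libraries, so an order of groups shared with the enzyme follows from the choice.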

How the data were processed

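RNA-seq of 12 ATDC5 libraries was analysed, 3 in each of 4 groups taken from the labels. The submitters' processing notes name HISAT2 2.0.5, featureCounts 1.5.0-p3 and DESeq2 1.20.0, with mm10 as the build, whereas gene coordinates in the table follow GRCm39. The authors deposited FPKM for 46731 genes, and every value times gene length was a whole multiple (within 0.01) of a step per library, which gave 14119199 to 19276520 fragments per library. The denominators followed median-of-ratios size factors and were 0.957 to 1.08 times the sum of fragments. FPKM are not counts, so DESeq2, which the authors used, was not run.

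Genes with at least 1 FPKM in at least 3 libraries (12368) were tested as log2(FPKM + 1) with limma 3.58.1 in R 4.3.3 (4 group means, eBayes with trend), with Benjamini-Hochberg adjustment. Replicates are independent experiments per the study, and p-values measure the spread between these libraries only. The fit was tested on simulated data. Genes named were the 10 enzymes, *Ddx5*, up to 4 of the largest rises and falls among called genes of each list in each knockdown comparison, and the 3 nearest patterns. The enzymes and lists were chosen with earlier results of these data known. Shares within a family were compared by exact permutation. Alternatives were a pseudocount of 0.1, no filter, quantile normalization, scaling to the sum of fragments, voom weights, a replicate block, only the 6 libraries of a contrast, and each library left out. Floors (3 fragments) cover counting error only. Python 3.11.15, pandas 2.3.3 and scipy 1.17.1 handled the tables and permutations, and matplotlib 3.10.9 the plots.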

Additional observations from a re-analysis of the deposited data

Results flagged for a closer look

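The effect of *Ddx5* knockdown differed between the media for 2 enzymes by the interaction test of limma. For *Lox* the knockdown effect with cytokines was 0.68 higher on the log2 scale than that in medium (adjusted p = 0.028), with a fall of 1.13 on the log2 scale in medium and of 0.45 with cytokines, and the level was lower in 3 of 3 shRNA-*Ddx5* libraries than in any shRNA-NC library of the same medium. For *P4ha2* the effect was 0.53 higher with cytokines (adjusted p = 0.02), at -0.16 in medium and 0.37 with cytokines, where 3 of 3 shRNA-*Ddx5* libraries lay above all shRNA-NC libraries. Both calls depend on the libraries that enter, as given with the results above, and on the model, as given with the alternatives.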

How the results depend on the processing

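The falls of *Lox* and the rises of *Plod3* and *P4ha1* after knockdown kept their direction and passed the threshold in every alternative run, in both media, as did the rise of *P4ha2* with cytokines in both lines. No paired design was found: same-numbered libraries had a mean correlation of -0.045 in their deviations from group means (18 pairs, range -0.394 to 0.448). With the replicate block, 687 genes passed the interaction test, 674 of them among the 1016 called without it, and 1 enzyme, *Lox*, was called positive (adjusted p = 0.054 for *P4ha2*).

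The number of enzymes called changed as follows, and the cause was not tested. Under scaling to the sum of fragments, 2 enzymes (*Lox* and *P4ha2*) fell after knockdown in medium, 1 rose with cytokines in each line, 4 fell with cytokines in shRNA-NC cells and 3 had a positive interaction. Under quantile normalization, 1 rose and 5 fell with cytokines in shRNA-NC cells, and 1 rose and 1 fell in shRNA-*Ddx5* cells. The median of all genes for these comparisons was then -0.047 and -0.053. With the 6 libraries of the contrast alone, 1 rose with cytokines in shRNA-NC and 1 fell in shRNA-*Ddx5* cells, and knockdown with cytokines raised 4. Without the filter on low values, knockdown with cytokines raised 4 and the interaction was positive for 1 enzyme. With voom weights the interaction was positive for 3.

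Leaving out each library in turn, 1 to 3 enzymes rose with cytokines in shRNA-NC cells, where 1807 to 2466 of all genes rose. In shRNA-*Ddx5* cells 1 to 2 enzymes rose, where 1159 to 1971 of all genes rose, and 0 to 1 fell. A positive interaction was called for 0 to 3 enzymes. Over all genes, 1080 to 1913 fell with cytokines in shRNA-*Ddx5* cells, and 238 to 520 had a positive and 321 to 619 a negative interaction. The lowest of these counts came without shRNA-*Ddx5* replicate 3, in medium for the first and with cytokines for the interaction.

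Signs turned only among differences that had not passed the threshold. Under quantile normalization the knockdown difference in medium was 0.0050 for *Loxl1* and 0.046 for *Loxl3*, and the cytokine difference of *Lox* in shRNA-*Ddx5* cells was -0.060. Leaving out libraries, the knockdown difference in medium ranged from -0.16 to 0.052 for *Loxl1*, -0.079 to 0.022 for *Loxl3* and -0.20 to 0.00064 for *Plod2*. The cytokine difference ranged from -0.15 to 0.054 for *Loxl1* in shRNA-NC and -0.0051 to 0.19 for *Plod2* in shRNA-*Ddx5* cells. The interaction ranged from -0.088 to 0.094 for *Plod1*, -0.055 to 0.070 for *Plod3* and -0.022 to 0.16 for *P4ha1*. In percentage points, the cytokine difference in shRNA-*Ddx5* cells ranged from -0.391 to 2.885 for the share of *Lox* and -1.877 to 1.17 for that of *Plod2*, and the knockdown difference in the share of *Plod2* with cytokines from -1.068 to 1.026 (0.0028 from fragments without length). Low fragment numbers limit *Loxl2* and *Loxl3*.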

Other observations

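The level of the enzymes relative to their substrate was set out after the data were seen. Summed over the 8 tested fibrillar collagens, levels were 673 ± 6.93 FPKM in shRNA-NC and 2458 ± 59.4 FPKM in shRNA-*Ddx5* cells in medium, and 462 ± 101 and 2034 ± 138 FPKM with cytokines (SD, n = 3 each). For each 100 FPKM of these collagens, *Lox* stood at 34.6 ± 4.89 FPKM in shRNA-NC and 4.31 ± 0.654 FPKM in shRNA-*Ddx5* cells in medium, and at 35.4 ± 10.2 and 5.62 ± 0.478 FPKM with cytokines. The groups did not overlap in either medium (exact two-sided permutation p = 0.1, the smallest that 3 against 3 libraries can give).

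In shRNA-NC cells the ratio of *Lox* to collagen overlapped between the media (exact p = 0.9), while the levels of *Lox* were lower with cytokines. The lysyl hydroxylases stood at 11.3 and 3.99 FPKM for each 100 FPKM of collagen in shRNA-NC and shRNA-*Ddx5* cells in medium and at 16.7 and 5.25 FPKM with cytokines. The prolyl 4-hydroxylase α subunits stood at 7.25 and 2.46 FPKM in medium and at 12.9 and 4.04 FPKM with cytokines. These ratios rest mostly on *Col1a2*, at 499 of the 673 FPKM in shRNA-NC and 1738 of the 2458 FPKM in shRNA-*Ddx5* cells in medium. The summed lysyl hydroxylases and prolyl 4-hydroxylase α subunits rose after knockdown, so the rise of the collagen sum sets the direction of their ratios. *Lox* itself fell, so its ratio would be lower without that rise as well. The cartilage collagen *Col2a1* fell, from 12.4 to 0.899 FPKM in medium, so ratios to it alone would run the other way for the enzymes that rose. They would do so for *Lox* too, which fell less than *Col2a1* (log2 fold change -1.13 against -2.80 in medium and -0.45 against -1.98 with cytokines).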
